A study of Populus trichocarpa and Populus tremula x Populus alba with 22 samples.

Results

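The effect of PtrbHLH011 overexpression on each poplar gene was compared between leaf and stem. The comparison used the 10 libraries of the overexpression experiment, out of 22 in the series. All came from Populus tremula x Populus alba, a hybrid poplar that is readily transformed, at an age of 4 months. Plants carried either the PtrbHLH011 overexpression construct (OE; library names DT6-1) or an empty vector (EV; library names Ctrl2), so both genotypes had passed through transformation. Leaf had 3 OE and 3 EV libraries, and stem had 2 OE and 2 EV libraries. The sources used here do not give the construct's promoter or how many independent transgenic lines were sampled, and the OE libraries share a single name stem. The other 12 libraries, from Populus trichocarpa grown for 21 days with 0 µM or 10 µM Fe, served only as a separate readout.

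PtrbHLH011 belongs to the basic helix-loop-helix family, whose members bind DNA as dimers through a basic region. In Arabidopsis, the factor of the same number is known as a repressor of genes for iron uptake, within a network of related factors that sets how strongly a plant responds to low iron. Leaf tissue is dominated by photosynthetic cells, and the stem of a tree by vascular and wood-forming cells. Whether the effect of overexpression on a gene differs between tissues is a question about the interaction of genotype with tissue. For every gene this is the leaf effect (log2 of OE over EV in leaf) minus the stem effect (log2 of OE over EV in stem). A positive interaction means that the leaf effect lay above the stem effect, and a negative interaction that it lay below.

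The libraries held 26620695 to 30101710 reads, and 28318 to 31053 of 42950 genes had at least 1 read. Libraries of the same group correlated across tested genes at r = 0.957 to 0.985, OE and EV libraries of the same tissue at 0.893 to 0.935, and leaf and stem libraries at 0.546 to 0.635. Tissue labels were also set against 1001 genes that were at least 16-fold higher in young leaf than in internode of the Fe-sufficient plants. These took 13.1% to 15.5% of reads in OE leaves and 18.4% to 21.1% in EV leaves, but 0.464% and 0.501% in OE stems and 0.527% and 0.537% in EV stems. The files give gene IDs without names and 0 of 42950 IDs matched the reference table used here, so the level of PtrbHLH011 itself, marker genes and pathways were not checked. The roles of the genes given below are therefore not stated. The libraries of a group are labelled as biological replicates, but nothing states that they came from separate plants or lines, so p-values measure the spread between these libraries. In whole tissue, a change in the share of a cell type and a change of RNA per cell cannot be told apart.

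Leaf and stem responded differently to overexpression for many genes. Of 23372 genes expressed in both tissues, 8449 (36.2%) had an interaction past the threshold (limma, adjusted p below 0.05). The interaction was positive for 4047 genes (17.3%) and negative for 4402 (18.8%). Across all tested genes the interaction had a median of -0.01 on the log2 scale, with quartiles at -0.64 and 0.59, and its standard error had a median of 0.29. Among called genes the median absolute interaction was 1.37, and 5940 of them differed by at least 2-fold. Among the largest differences, 319 genes had an interaction of at least 16-fold toward a higher leaf effect and 127 toward a higher stem effect. Which sign was the more frequent among all calls depended on the method, since edgeR on the recovered reads gave 4767 positive and 3845 negative calls. Without OE stem replicate 2, the count of calls was 5329.

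Single libraries were also compared. For 5547 genes (23.7%) every leaf difference between an OE and an EV library lay above every stem difference, and for 5854 genes (25%) every leaf difference lay below. Of the 8449 called genes, 8411 were separated in this way in the direction of their call. The separation uses the same values as the test, so it describes the calls and gives them no separate support. Over all tested genes, called or not, 7669 (32.8%) had an interaction whose 95% interval lay within -1 to 1, that is, a tissue difference bounded below 2-fold.

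**Figure D1:**
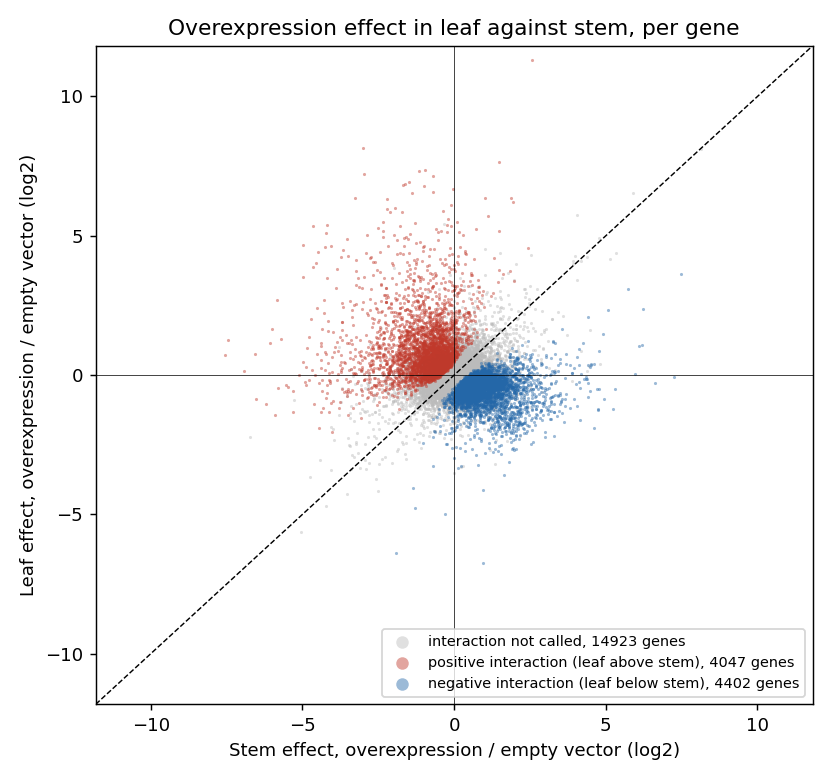
Leaf effect (vertical axis) against stem effect (horizontal axis) of overexpression for 23372 genes, both as log2 of OE over EV. Red points are the 4047 genes with a positive and blue points the 4402 with a negative interaction, and the dashed line marks equal effects; most coloured points lie at the upper left and lower right, where the effects have opposite signs (86.4% of called genes).

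The largest positive interaction among genes with a mean of at least 50 normalized counts in each tissue belonged to Potri.006G129900. It had 347, 305 and 881 normalized counts in the 3 OE leaves, against 0, 3.05 and 0 in the 3 EV leaves. In stem it had 152 and 81.8 in OE, against 869 and 921 in EV. OE libraries thus lay above all EV libraries in leaf and below all of them in stem, with no overlap in either tissue. The interaction was 11.15 ± 0.91 (SE) on the log2(value + 1) scale (limma, adjusted p = 0.000113). The leaf effect rests on 3 reads in all EV leaves together, so its exact size is poorly determined.

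Potri.006G179300 followed with 2852, 1087 and 1706 normalized counts in OE leaves, against 14.4, 30.5 and 18.5 in EV leaves. Its stem values were 16.8 and 29.8 in OE and 368 and 138 in EV. Again the groups were separated in both tissues and in opposite directions: OE was 89.1-fold higher than EV in leaf and 10.8-fold lower in stem. The interaction was 9.64 ± 0.73 (limma, adjusted p = 8.34e-05).

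The most negative interaction was that of Potri.012G130600, a gene with a strong fall in leaf. It had 39.99, 13.6 and 15.9 normalized counts in OE leaves, against 2348, 2170.3 and 2439 in EV leaves. In stem it had 60.4 and 87.6 in OE and 30.8 and 44.4 in EV, a stem effect of 0.96 that did not pass the test (limma, adjusted p = 0.125). The interaction of -7.70 ± 0.57 (limma, adjusted p = 8.34e-05) was thus carried by leaf.

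For Potri.006G065500 the stem carried the difference. Its leaf values overlapped, at 16142, 6841 and 10535 in OE and 16602, 13600.3 and 5895 in EV (leaf effect -0.06, limma adjusted p = 0.932). In stem it had 590.3 and 1428 normalized counts in OE, against 4.1 and 6.06 in EV, 199-fold higher. EV stems held only 4 and 6 reads, so this fold is poorly determined. The interaction was -7.32 ± 0.71 (limma, adjusted p = 0.000201).

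**Figure D2:**
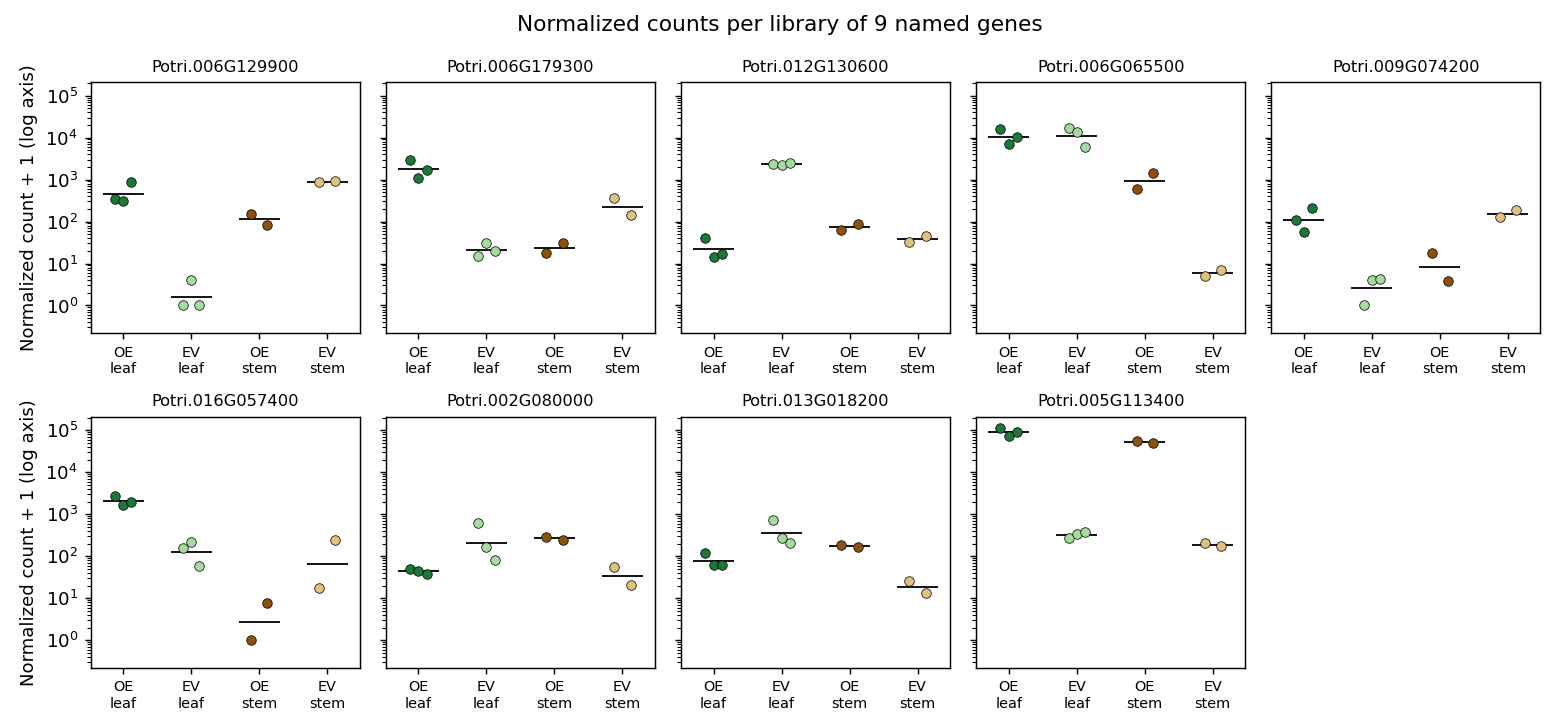
Normalized counts plus 1 (vertical log axis) in each OE and EV library of leaf and stem for 9 named genes; points are libraries and lines the means on the log scale. The 8 genes from Potri.006G129900 to Potri.013G018200 change differently in leaf and stem, while Potri.005G113400, the last, shows the same fold in both tissues.

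Called interactions were sorted by the effects in each tissue, taken from the same fit. In that fit, overexpression raised 3157 genes (13.5%) and lowered 2720 (11.6%) in leaf, and raised 3970 (17%) and lowered 3292 (14.1%) in stem. The most common pattern was a call in a single tissue, with 5868 of the 8449 genes: 2229 in leaf and 3639 in stem. Up in stem only was the most frequent class (2155 genes), followed by down in stem only (1484), up in leaf only (1318) and down in leaf only (911). A further 1511 genes were called in both tissues in opposite directions, 738 up in leaf and down in stem and 773 down in leaf and up in stem. Just 108 were called in the same direction in both tissues with different sizes. For the remaining 962 genes neither effect passed on its own, and all of these had leaf and stem estimates of opposite sign. Over all 8449 genes, 86.4% had estimates of opposite sign, against 57.8% of all tested genes; an interaction is itself largest where signs differ, so the classes are a description. The stem effect was the larger in absolute size for 64% of called genes and for 58.8% of all tested genes.

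The count of oppositely called genes moved more with single libraries than the count of interactions. It was 855 without OE leaf replicate 3, 716 without EV stem replicate 2, and 773 and 593 without OE stem replicates 1 and 2, where the lone stem library of a genotype is assumed to vary like the other groups. With sample weights it was 2979.

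**Figure D3:**
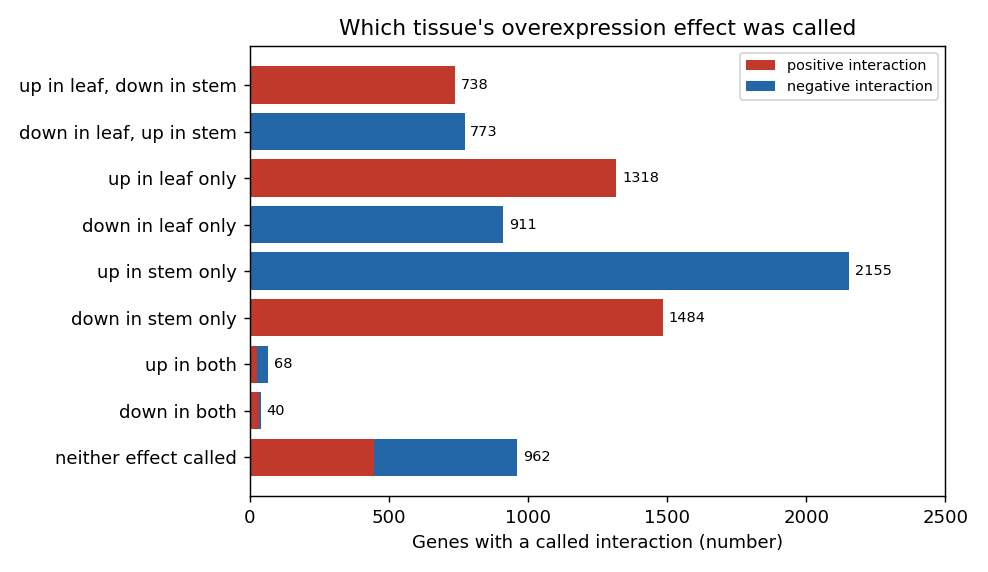
Number of genes with a called interaction (horizontal axis) in each class of leaf and stem calls, coloured by the sign of the interaction. Classes with a call in stem only are the longest bars (2155 and 1484 genes), and the same direction in both tissues is the rarest outcome (68 and 40 genes).

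Among genes that were up in leaf and down in stem, the smaller of both effects was largest for Potri.016G057400 and Potri.009G074200. Potri.016G057400 had 2666, 1636 and 1978 normalized counts in OE leaves, against 153, 213 and 58.7 in EV leaves. Its stem values were 0 and 6.74 in OE, against 16.4 and 246 in EV, so the groups did not overlap but the EV stems differed widely. The interaction was 8.59 ± 1.53 (limma, adjusted p = 0.00252).

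Potri.009G074200 had 109, 56.5 and 203 normalized counts in OE leaves, against 0, 3.05 and 3.26 in EV leaves. In stem it had 16.8 and 2.89 in OE and 126 and 183 in EV. Groups were separated in both tissues, with an interaction of 9.60 ± 1.16 (limma, adjusted p = 0.000443). EV leaves held 0, 3 and 3 reads and OE stems 17 and 3, so its exact size is poorly determined. It ran from 7.62 to 11.14 across the alternative fits.

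The reverse pattern, down in leaf and up in stem, was led by Potri.002G080000 and Potri.013G018200. Potri.002G080000 had 49.5, 43.8 and 37.3 normalized counts in OE leaves, against 613, 169 and 82.6 in EV leaves, and 284 and 247 in OE stems, against 54.3 and 19.2 in EV stems. All OE libraries lay below EV in leaf and above EV in stem, although EV leaf replicate 1 stood well above the other EV leaves (interaction -5.21 ± 0.99, limma adjusted p = 0.00335).

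Potri.013G018200 had 118, 61.3 and 62.5 normalized counts in OE leaves, against 750.0, 274 and 209.8 in EV leaves. In stem it had 185 and 169 in OE, against 24.6 and 12.1 in EV. It was 5.1-fold lower in OE leaves and 9.66-fold higher in OE stems (interaction -5.46 ± 0.74, limma adjusted p = 0.000735). EV leaf replicate 1 was again the highest leaf library.

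Among the 108 genes that moved the same way in both tissues by different amounts, the leaf rise was the larger for Potri.008G172500. It averaged 811 ± 389 normalized counts in OE leaves and 19.9 ± 2.31 in EV leaves (SD, n = 3 each), 40.8-fold higher, and 129 ± 22.3 in OE stems and 46.9 ± 19.2 in EV stems (n = 2 each), 2.74-fold higher. The interaction was 3.69 ± 0.55 (limma, adjusted p = 0.00109). Potri.003G192500 fell in both, mainly in stem, to 92.4 ± 15.0 in OE stems against 3730.4 ± 325 in EV stems, 40.4-fold lower. Its leaf values of 104, 312 and 96.1 in OE overlapped with 397, 266 and 473 in EV (interaction 4.00 ± 0.63, limma adjusted p = 0.00144).

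Rises that were larger in stem were led by Potri.008G081000 and Potri.018G069700. Potri.008G081000 was 1.84-fold higher in OE leaves (1376 ± 183, against 747 ± 104 in EV leaves) and 29.2-fold higher in OE stems (491 ± 123, against 16.8 ± 3.78 in EV stems). Its interaction was -3.90 ± 0.30 (limma, adjusted p = 9.38e-05). Potri.018G069700 was 12.7-fold higher in OE leaves (123 ± 49.7, against 9.69 ± 6.77) and 153-fold higher in OE stems (8264 ± 2697, against 54.2 ± 45.2), with an interaction of -3.85 ± 0.88 (limma, adjusted p = 0.00804).

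Effects limited to a single tissue were read only where the interval of the other tissue's effect lay within -1 to 1. Of genes with a mean of at least 50 in each tissue, 669 were up and 599 down in leaf with such a bounded stem effect. Another 1619 were up and 1032 down in stem with a bounded leaf effect. Over all tested genes the median standard error was 0.18 for leaf effects and 0.22 for stem effects. Leaf effects were thus bounded more easily, so these counts do not compare the tissues. In leaf, Potri.008G022100 had 2111, 2291 and 2935 normalized counts in OE, against 147, 145 and 115 in EV, while its stem values were 256 and 257 in OE and 348 and 356 in EV. All OE leaves were far above EV leaves, and the stem effect of -0.45 did not pass (limma, adjusted p = 0.0881; interaction 4.61 ± 0.24, adjusted p = 1.16e-05). Potri.015G016500 was 15.9-fold higher in OE leaves (2077 ± 277, against 131 ± 24.2 in EV leaves), with 114 ± 7.38 in OE stems and 104 ± 20.5 in EV stems (interaction 3.85 ± 0.29, limma adjusted p = 8.34e-05).

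The named falls limited to leaf were smaller than the named rises. Potri.002G218032 had 26.3 ± 4.71 normalized counts in OE leaves and 172 ± 50.8 in EV leaves, 6.54-fold lower, with 2325 ± 475 in OE stems and 2424 ± 468 in EV stems. Potri.002G223300 was 6.04-fold lower in OE leaves (21.5 ± 8.11, against 129.98 ± 34.5), with 1936 ± 20.1 in OE stems and 1891 ± 407 in EV stems. Their interactions were -2.57 ± 0.38 and -2.63 ± 0.47 (limma, adjusted p = 0.00113 and 0.00262).

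In stem, Potri.006G034000 had 502 and 662 normalized counts in OE, against 44.1 and 23.2 in EV, 17.3-fold higher on average. Its leaf values were 5689 ± 997 in OE and 4373 ± 608 in EV, an effect of 0.37 that did not pass (limma, adjusted p = 0.264; interaction -3.75 ± 0.37, adjusted p = 0.000202). Potri.010G126300 was 9.69-fold higher in OE stems (176 and 208, against 17.4 and 22.2), with overlapping leaf values of 4238 ± 1533 in OE and 3709 ± 804 in EV (interaction -3.08 ± 0.43, limma adjusted p = 0.000866).

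Stem falls included Potri.017G110500, with 8.91 and 5.78 normalized counts in OE stems, against 165 and 233 in EV stems, 27.1-fold lower. This fold rests on 9 and 6 reads in OE stems. The leaf means of Potri.017G110500 were 179 ± 67.1 in OE and 173 ± 9.86 in EV, with overlapping libraries (interaction 4.58 ± 0.46, limma adjusted p = 0.000212). Potri.005G141600 had 992 and 393 in OE stems, against 7707 and 9076 in EV stems, 12.1-fold lower, and 3424 ± 519 in OE leaves and 3154 ± 563 in EV leaves (interaction 3.86 ± 0.45, limma adjusted p = 0.000392).

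Some effects were shared by the tissues. In all, 658 genes were called in the same direction in leaf and stem, and 550 of them had no called interaction. Potri.005G113400 was the most extreme: 110719, 74464 and 90481 normalized counts in OE leaves, against 274, 333 and 383 in EV leaves, and 54806 and 51278 in OE stems, against 209 and 171 in EV stems. The rise was 278-fold in leaf and 279-fold in stem, and the interaction had a 95% interval of -0.62 to 0.59. With quantile normalization the interaction of Potri.005G113400 was 1.07 (limma, adjusted p = 0.104). The IDs carry no names, so it was not tested whether Potri.005G113400 is the overexpressed PtrbHLH011 itself.

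The next shared rise by this rule was much smaller. Potri.005G170700 was 2.9-fold higher in OE leaves (159 ± 18.3, against 54.9 ± 10.8 in EV leaves) and 2.95-fold higher in OE stems (674 ± 53.5, against 228 ± 52.8 in EV stems), with an interval of -0.76 to 0.67. Shared falls were led by Potri.009G101232, 3.17-fold lower in OE leaves (211 ± 33.0, against 669 ± 71.4) and 3.87-fold lower in OE stems (104 ± 4.82, against 404 ± 33.8), with an interval of -0.28 to 0.82. Potri.001G280200 was 2.58-fold lower in OE leaves (84.8 ± 12.9, against 219 ± 10.4) and 3.09-fold lower in OE stems (11059 ± 1303, against 34166 ± 1304), with an interval of -0.17 to 0.70.

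The share of calls varied with the level of a gene. Genes were divided by mean level into 4 groups of 5843. In the lowest group, up to 127 normalized counts, 19% of genes had a positive and 12.8% a negative interaction. In the highest group, above 922, 16.5% were positive and 26.1% negative. The median standard error of the interaction was 0.55 in the lowest and 0.21 in the highest group. The positive share was thus lower and the negative share higher among abundant genes, and the cause was not tested.

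Tissue preference was taken from libraries that the interaction did not use, as young leaf over 3rd internode in the Fe-sufficient plants. How far the 3rd internode of Populus trichocarpa matches the stem of the hybrid was not tested, so internode preference is not stem preference. The tables were scaled separately, and the ratio was set by scaling the recovered reads of all 6 libraries together. Genes down in leaf only had a median preference of 0.93 on the log2 scale, toward leaf, and 67.2% of 895 were higher in leaf. Genes down in leaf and up in stem also leaned toward leaf (median 0.67, 63.1% of 770). In contrast, genes up in stem only leaned toward the internode (median -0.47, with 31% of 2139 higher in leaf). Genes up in leaf only had a median of -0.13 and genes down in stem only of 0.25. Genes with no call in either tissue and no called interaction stood at 0. Of the 962 genes with a called interaction alone, the 938 with a preference value stood at -0.05. Quartiles overlapped between all classes.

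**Figure D4:**
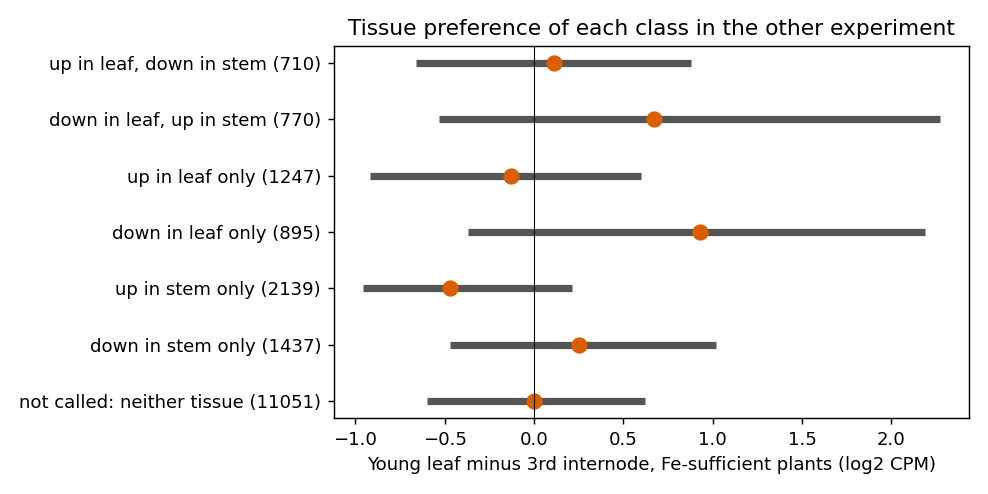
Median (point) and quartiles (bar) of the log2 ratio of young leaf to 3rd internode in Fe-sufficient plants (horizontal axis) for each class, with the number of genes in brackets. Genes that fell in OE leaves are shifted toward leaf (0.93 and 0.67), and genes up in stem only toward the internode (-0.47).

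Read from the preference side, 2073 tested genes were at least 4-fold higher in Fe-sufficient leaf. Of these, 33.5% had a negative and 15.6% a positive interaction, against 19.2% and 17.1% of all 22674 genes with a preference value. Their median leaf effect was -0.37 and their median stem effect 0.03, so the leaf effect carried the shift. The 1437 genes at least 4-fold higher in internode were nearly balanced, with 21.4% negative and 19.3% positive. The summed share of leaf-preferring genes (at least 16-fold) averaged 14.1% of reads in OE leaves and 19.8% in EV leaves, which moves in the same direction; its part in the gene calls was not tested. In stem the same genes averaged 0.482% in OE and 0.532% in EV. Among the 376 of them that were tested, 28 were called up and 118 down in leaf, and 86 up and 79 down in stem.

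Other whole-library measures are given as values, since the design has too few libraries to test how their effects differ. In an exact permutation test of genotype within tissues the smallest two-sided p is 0.0167, and a lone measure of the 4 compared, leaf-preferring reads included, cannot go below 0.0667 after adjustment. Reads in the 10 most abundant genes made up 4.57% of the total in OE leaves and 7.48% in EV leaves, and 4.95% in OE stems and 7.02% in EV stems. On average, 30964 genes had a read in OE leaves and 30329 in EV leaves, against 28398 in OE stems and 28720 in EV stems, so the leaf effect lay 957 genes above the stem effect. The 800 genes at least 16-fold higher in Fe-sufficient internode held 0.356% of reads in OE leaves and 0.191% in EV leaves. In stem they held 5% in OE and 3.88% in EV, so their share was higher in OE in both tissues.

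The response to Fe deprivation was measured in other plants and is a separate readout of the same genes. In young leaf, limma called 3.04% of all 28632 genes as rising and 3.27% as falling without Fe. Of 4344 genes with a negative interaction, 248 rose (5.71%) and 116 fell (2.67%), with a median log2 response of 0.17. Of 3866 genes with a positive interaction, 121 rose (3.13%) and 175 fell (4.53%), with a median of -0.12. Over all 22536 genes with a value in both experiments, 3.05% rose and 3.03% fell, with a median of 0.01; the difference between the signs was not tested. In the up in stem only class, 170 of 2132 genes rose and 29 fell. The 248 rises became 545 without Fe-deprived leaf replicate 1, 17 and 14 without control replicates 2 and 3, and 10 without either of Fe-deprived replicates 2 and 3. Rises over all genes were not counted in these fits, so whether the share stayed above that of all genes is not known.

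In the 3rd internode, 0.448% of 29219 genes rose and 0.264% fell without Fe. Of 3893 genes with a positive interaction, 37 rose (0.95%) and 3 fell (0.0771%), with a median of 0.11. Of 4350 with a negative interaction, 4 rose (0.092%) and 9 fell (0.207%), with a median of -0.02. Over all 22675 genes with a value in both experiments, 0.375% rose and 0.225% fell, with a median of 0. Differences between the signs, or between leaf and internode, were not tested. The 37 rises became 160 without control replicate 1 and 163 without control replicate 3, and 0 without control replicate 2 or any of the 3 Fe-deprived libraries. Here too, rises over all genes were not counted in the fits with a library left out.

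Of the 24 genes named above, 6 were called in Fe-deprived young leaf, 3 rising and 3 falling, where 3.04% of all genes rose and 3.27% fell. The named genes were chosen for large effects, and leaving out single Fe libraries, which moved the leaf counts widely, was not run gene by gene. Potri.008G022100, called up in leaf only, rose to 3273 ± 1581 without Fe, against 290.1 ± 61.3 with Fe (n = 3 each, limma adjusted p = 0.00522). Potri.006G129900, the gene with the largest positive interaction, stood at 90.6 ± 33.0 without Fe and 13.8 ± 10.4 with Fe (n = 3 each, limma adjusted p = 0.0468). Potri.016G057400 rose to 3729 ± 1101 without Fe, against 1096 ± 465 with Fe (limma, adjusted p = 0.0263). Potri.017G110500, down in OE stems only, fell to 263 ± 113 without Fe, against 1327 ± 565 with Fe (limma, adjusted p = 0.0213). Potri.012G130600, which was lowest in OE leaves, fell to 168 ± 126 without Fe, against 10558 ± 853 with Fe (limma, adjusted p = 0.00281). Potri.005G113400, raised by overexpression in both tissues, fell to 10.2 ± 3.60 without Fe, against 361 ± 94.7 with Fe (limma, adjusted p = 0.00271). Potri.012G130600 thus fell both in OE leaves and in Fe-deprived leaves, while Potri.005G113400 moved in opposite directions in the 2 experiments. Whether the rise of Potri.005G113400 in OE plants is the construct's own transcript was not tested. In the internode, where 0.448% of all genes rose and 0.264% fell, 1 of the 24 was called, Potri.001G280200, with 2521 ± 1732 without Fe and 88.2 ± 29.7 with Fe (limma, adjusted p = 0.0337).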

How the data were processed

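The authors deposited normalized counts, a signal per gene made by dividing gene counts by a size factor for each library, with leaf and stem in separate tables. Per the labels' protocols, RNA was taken with the RNeasy Plant Mini kit and sequenced as strand-specific mRNA libraries (DNBSEQ). The submitters' processing notes list DESeq2 2.11.40.7, HISAT2 2.2.1 and StringTie 2.2.1 but no role for each. Genome build, annotation and strand setting: not given in the sources used here. IDs have the form of the Populus trichocarpa annotation, while the plants were a hybrid of other species, so overlapping or near-identical genes are uncertain. In every library, dividing by the smallest value gave whole numbers (100% within 0.001), which are called reads here.

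Genes with a value of at least 10 in 3 leaf and 2 stem libraries were tested on the log2(value + 1) scale in R 4.3.3, using limma 3.58.1 with its trend option. All 4 groups shared a variance per gene, tests were two-sided and Benjamini-Hochberg adjusted over all 23372 genes. A constant per table cancels within each tissue's effect. Fold changes on this scale understate low genes; folds in the text are ratios of means. A further 3652 genes passed in leaf only and 1438 in stem only and were not in this test. Tissue preference used log2 CPM of those reads after edgeR's TMM scaling. edgeR 4.0.16 and DESeq2 1.42.0 on the reads, other pseudocounts, filters, scalings, weights, replicate blocks and leaving out each library were alternatives. The test was checked on simulated data.

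Named genes had a mean of at least 50 in each tissue: 2 per direction with the largest interaction, the largest smaller effect in opposite directions, the largest interaction within the same direction, the largest shared effect with an interval within -1 to 1, and the largest effect in a single tissue with the other's interval within -1 to 1. The comparison, rules and gene lists were chosen with earlier results of these data known. All 22 gene lists had no members, since 0 IDs matched the RefSeq table (P.trichocarpa_v4.1). Replicates differed beyond sampling noise (chi-square per gene 9.41 to 56.7 over 8 pairs).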

Additional observations from a re-analysis of the deposited data

Results flagged for a closer look

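The effect of overexpression differed between the tissues, by a test of the difference itself, for 8449 genes, 20 of the 24 named ones among them. Leaf minus stem differences, as log2, were 11.15 for Potri.006G129900, 9.64 for Potri.006G179300, 9.60 for Potri.009G074200 and 8.59 for Potri.016G057400, which were higher in OE leaves and lower in OE stems. They were 4.61 for Potri.008G022100 and 3.85 for Potri.015G016500, called up in leaf only. For Potri.017G110500 and Potri.005G141600, called down in stem only, they were 4.58 and 3.86. For Potri.003G192500 and Potri.008G172500, which moved the same way in both tissues, they were 4.00 and 3.69. Negative differences were -7.70 for Potri.012G130600, -7.32 for Potri.006G065500, -5.46 for Potri.013G018200, -5.21 for Potri.002G080000, -3.90 for Potri.008G081000, -3.85 for Potri.018G069700, -3.75 for Potri.006G034000, -3.08 for Potri.010G126300, -2.63 for Potri.002G223300 and -2.57 for Potri.002G218032. Groups of 2 or 3 libraries were not searched for outlying samples.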

How the results depend on the processing

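Across the 13 other fits of all 10 libraries the interaction was called for 7319 to 11494 genes, against 8449, and the 24 named genes kept their direction where called and their side of the threshold in each fit that tested them. A minimum of 50 left out Potri.016G057400. Without each library in turn, 5329 (OE stem replicate 2) to 8763 genes were called, and 593 to 1644 were called in opposite directions, against 1511; sample weights gave 2979. A 2-fold minimum left 5940. Calls split into 3431 positive and 4170 negative with quantile normalization, and into 4767 and 3845 with edgeR. Whether replicate numbers mark shared plants is not stated, and the OE stem library titled replicate 2 carries code 3, so pairing by number and by code differ. Not every pair reached 0.1, so the numbers were not taken as pairs: deviations of same-numbered OE and EV libraries correlated at 0.0689 to 0.272, and of leaf and stem libraries with the same code at -0.0328 to 0.141. With the replicate block by number 8866 genes were called, and with a plant term by library code 9095; that term leaves single-tissue effects undefined, so it gave no classes. Leaving out libraries was added for the following values after seeing the data. The difference of effects ran from -1.24 to -0.526 points for the 10 most abundant genes and from 555 to 1360 for genes with a read; the highest came without EV stem replicate 1, which leaves 1 EV stem library (exact permutation test, unadjusted p = 0.0167). When a library was left out, rises without Fe ran from 10 to 545 of the genes with a negative interaction in leaf. In internode they ran from 0 to 163 of the genes with a positive interaction. Rises over all genes were not counted in these fits. The share of negative interactions among genes at least 4-fold higher in Fe-sufficient leaf ran from 32% to 35.5%. The cause of these changes was not tested.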

Other observations

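The digits before the G in a Potri ID name its chromosome in the poplar annotation. On 18 of the 19 chromosomes 15.2% to 20% of tested genes had a positive and 17.1% to 20.6% a negative interaction. Chromosome 19, named after its values were seen and not tested, had 140 of 596 genes positive (23.5%) and 89 negative (14.9%), with a median leaf effect of 0.07 and a median stem effect of -0.07. The 674 genes not placed on a chromosome had 16.2% positive and 12.5% negative, with a median interaction of 0.15, against 0.13 on chromosome 19.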
